A study of Mus musculus with 2 samples.

Results

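Cluster 45 is a group of tumour macrophages in the study's deposited cell annotation, taken here as the cells named macrophages and numbered 45 whose barcode held at least 1000 mouse-gene UMIs (unique molecular identifiers, each standing for 1 captured transcript). The rule found 95 cells among 8767 annotated cells of the library. In 1 of them the strongest hashtag belonged to a mouse with another treatment, and it was set aside, which left 94 cells, against 4010 macrophages in 23 other clusters. The tumours came from MC38, a colon carcinoma line, 2000000 cells of which were placed under the skin of mice with human Fc gamma receptors in place. Antibodies to mouse GITR with a human IgG1 Fc part were given at 100 µg per mouse in 2 injections 3 days apart, and CD45+ cells were sorted 4 days after treatment. The groups were N297A (agonist, Fc-null; 2 mice), GA-aFuc (agonist, Fc enhanced; 1 mouse), GITR/Syn GA-aFuc (1 mouse; Fc enhanced but non-agonist) and Untreated (2 mice, PBS in the design text). The design names 3 mice per treatment, and cells outside this library enter only the shares of macrophages given further on.

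Cycling cells copy their DNA in S phase with helicases, polymerases and ligases, and in G2 and M phase they build up B-type cyclins, survivin and centromere proteins before they divide. Most histone transcripts are made during S phase, although some histone genes also give polyadenylated transcripts. Macrophages in tumours can divide in the tissue, and they are also a source of chemokines and of class II antigen presentation.

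The macrophage markers were present. C1qa, a subunit of complement C1q, averaged 4537 ± 478 CPM in cluster 45 and 5596 ± 399 CPM in the other macrophages (CPM, a gene's UMIs per 1000000 mouse UMIs; mean ± SD over 6 mice). Csf1r, the receptor for macrophage colony-stimulating factor, averaged 434 ± 55.6 CPM in cluster 45 and 425 ± 30.3 CPM in the other macrophages. Apoe, the lipid carrier apolipoprotein E, averaged 4651 ± 1241 CPM in cluster 45 and 8747 ± 1848 CPM in the other macrophages, and was lower in cluster 45 within each of 6 mice. The C1qa values of the mice did not overlap (3884 to 4997 CPM in cluster 45, 5136 to 6090 CPM in the others). With the mice summed, C1qa lay above 2 of 23 other clusters, and Apoe, at 4467 CPM, below all 23 (lowest 4475 CPM). Of 16 core macrophage genes, 14 had a mean log2 ratio below 0 and 0 were called, by the rule given below. Their summed level lay between 26533 and 31756 CPM in cluster 45 and between 34580 and 41199 CPM in the other macrophages, without overlap. Cells with at least 5000 UMIs were thinned to 5000, which kept 92 of 94 cells of cluster 45, 3896 of 4010 other macrophages and 791 of 907 CD8 T cells. Among these, Csf1r was seen in 83.7% of cluster 45 cells, 84.8% of other macrophages and 6.83% of CD8 T cells, which should lack it (96.8%, 96.3% and 10.9% unthinned; median UMIs 15646, 15220.5 and 8158 unthinned). The summed level of 7 T cell markers lay between 7.66 and 30.9 CPM in cluster 45 and between 13 and 25.5 CPM in the other macrophages. That of 5 neutrophil markers lay between 24.9 and 45.9 CPM in cluster 45 and between 28.7 and 43.7 CPM in the other macrophages, with 3 of them at 0 UMIs in cluster 45.

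The mice gave 14 and 12 cells of cluster 45 (N297A replicates 1 and 2), 23 cells (GA-aFuc), 22 cells (GITR/Syn GA-aFuc) and 9 and 14 cells (Untreated replicates 1 and 2). Their summed depth lay between 122929 and 360725 mouse UMIs per mouse. A cell of cluster 45 had a median of 15646 UMIs, against 15220.5 in the other macrophages, and a median mitochondrial share of 2.12% against 1.92%. A gene with 0 UMIs in cluster 45 of a mouse could still have a level of up to 8.32 CPM (GA-aFuc) to 24.4 CPM (Untreated replicate 1), the value of 3 UMIs.

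The genes furthest above the other macrophages included genes of cell division and histone genes, and those furthest below included genes of DNA replication and inflammatory chemokines. Clusters of this kind are made from the expression values of the same cells, so these differences are a description and carry no test. Ratios were taken within each mouse as log2((CPM in cluster 45 + 10)/(CPM in other macrophages + 10)), and a gene was called where the mean reached 1 or -1 with the same sign in 6 of 6 mice. Of 3734 genes with at least 50 CPM in the higher side, 11 were called higher (0.295%) and 44 lower (1.18%), with a median ratio of 0.06. Just inside the level of 1 lay Mthfd2 at 1.09, and just outside it Cdca3 at 0.97. Just inside the level of -1 lay Tmem176a at -1.06, and just outside it Wfdc17 at -0.99 and Adam8, which missed it by less than 0.001.

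The promoters of 2 genes from the higher set and 2 from the lower set are shown, picked from those that hold the CCAAT motif. They are RefSeq's for build GRCm38.p6, from 250 bases before to 50 bases after each gene's start. Capitals mark CCAAT (bound by NF-Y), TTTGAA and TTCGAA (cell cycle homology region elements) and TGATGNAA (a C/EBP-ATF element) on either strand. Ccnb2 is at chr9:70421505-70421804 on the minus strand, and Cdkn3 is at chr14:46760291-46760590 on the plus strand. Top2a is at chr11:99024140-99024439 on the minus strand, and H1f5 is at chr13:21780576-21780875 on the minus strand.
Ccnb2: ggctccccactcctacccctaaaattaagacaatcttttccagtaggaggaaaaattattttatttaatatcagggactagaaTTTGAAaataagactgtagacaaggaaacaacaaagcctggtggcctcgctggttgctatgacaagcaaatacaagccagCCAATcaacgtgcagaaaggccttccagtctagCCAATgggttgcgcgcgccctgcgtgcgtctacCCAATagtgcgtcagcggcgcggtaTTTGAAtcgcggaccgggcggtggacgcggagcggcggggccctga
Cdkn3: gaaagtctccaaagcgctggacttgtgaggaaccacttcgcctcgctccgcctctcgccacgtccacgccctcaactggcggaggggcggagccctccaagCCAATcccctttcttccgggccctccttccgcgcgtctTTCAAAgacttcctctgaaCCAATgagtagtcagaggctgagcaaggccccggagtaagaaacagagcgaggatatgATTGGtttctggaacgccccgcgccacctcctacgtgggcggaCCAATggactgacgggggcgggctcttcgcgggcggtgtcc
Top2a: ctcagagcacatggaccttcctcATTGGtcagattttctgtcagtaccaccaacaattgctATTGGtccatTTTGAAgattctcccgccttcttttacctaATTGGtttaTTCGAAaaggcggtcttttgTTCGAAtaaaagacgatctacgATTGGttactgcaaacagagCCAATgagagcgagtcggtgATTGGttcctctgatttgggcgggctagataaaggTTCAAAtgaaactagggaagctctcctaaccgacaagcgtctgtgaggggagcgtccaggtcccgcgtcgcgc
H1f5: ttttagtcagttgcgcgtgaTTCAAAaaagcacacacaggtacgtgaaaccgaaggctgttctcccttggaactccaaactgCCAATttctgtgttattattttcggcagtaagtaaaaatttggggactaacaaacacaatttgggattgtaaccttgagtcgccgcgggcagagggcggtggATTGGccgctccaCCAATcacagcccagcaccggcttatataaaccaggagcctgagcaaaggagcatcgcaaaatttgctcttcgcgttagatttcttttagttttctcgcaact

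Ccnb2 carries 3 CCAAT motifs, whose first bases lie at -87, -54 and -21 from the start. Of the 15 genes furthest above the other macrophages, 13 had a promoter in the table and 11 of these held CCAAT. Of the 15 furthest below, 10 had one and 6 of these held CCAAT, which is in 37.4% of all 32851 promoters. TTTGAA was in 6 of the higher set, 3 of the lower set and 17.9% of all. TTCGAA was in 0, 2 and 1.56%, and TGATGNAA in 1 (Iars), 0 and 3.97%. A match says only that these letters are in this window.

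Ccnb2, the B2 cyclin that works at entry into mitosis, stood furthest above the other macrophages. It had 159 and 198 CPM in cluster 45 of the N297A mice, 180.2 CPM in the GA-aFuc mouse, 181 CPM in the GITR/Syn GA-aFuc mouse and 219.6 and 176 CPM in the Untreated mice, against 27.1 to 43 CPM in the other macrophages. The lowest value in cluster 45 lies well above the highest in the other macrophages, and the mean log2 ratio was 2.16 ± 0.22 (SD, n = 6 mice). At 5000 UMIs per cell, Ccnb2 was seen in 47.8% of cluster 45 cells, 10.9% of other macrophages and 12.1% of CD8 T cells (87.2%, 21.3% and 16.5% unthinned).

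Other cell division genes among the 15 furthest above are named here, each higher in 6 of 6 mice as a call requires. Cdkn3, a phosphatase of cyclin-dependent kinases, ran from 61.8 to 112 CPM with a median of 85.1 in cluster 45, against 13.9 to 21.5 CPM with a median of 18 in the other macrophages (log2 ratio 1.75 ± 0.25). Cenpa, the histone H3 variant of centromeres, averaged 217 ± 47 CPM in cluster 45 and 73.2 ± 7.07 CPM in the other macrophages. Cks1b, a subunit of cyclin-dependent kinases, averaged 188 ± 53.8 CPM in cluster 45 and 64.2 ± 13.2 CPM in the other macrophages. None of these overlapped between the sets, and the same holds for the next genes. Knstrn, a protein of the mitotic spindle and kinetochore, averaged 67.1 ± 12.4 CPM in cluster 45 and 21 ± 2.96 CPM in the other macrophages. Birc5, survivin, averaged 224 ± 61.1 CPM in cluster 45 and 88.1 ± 19 CPM in the other macrophages (log2 ratio 1.24 ± 0.28). With the mice summed, Ccnb2 and Cdkn3 in cluster 45 each lay above 21 of 23 other clusters, Cenpa and Cks1b above 20 of 23 and Birc5 above 19 of 23.

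**Figure D1:**
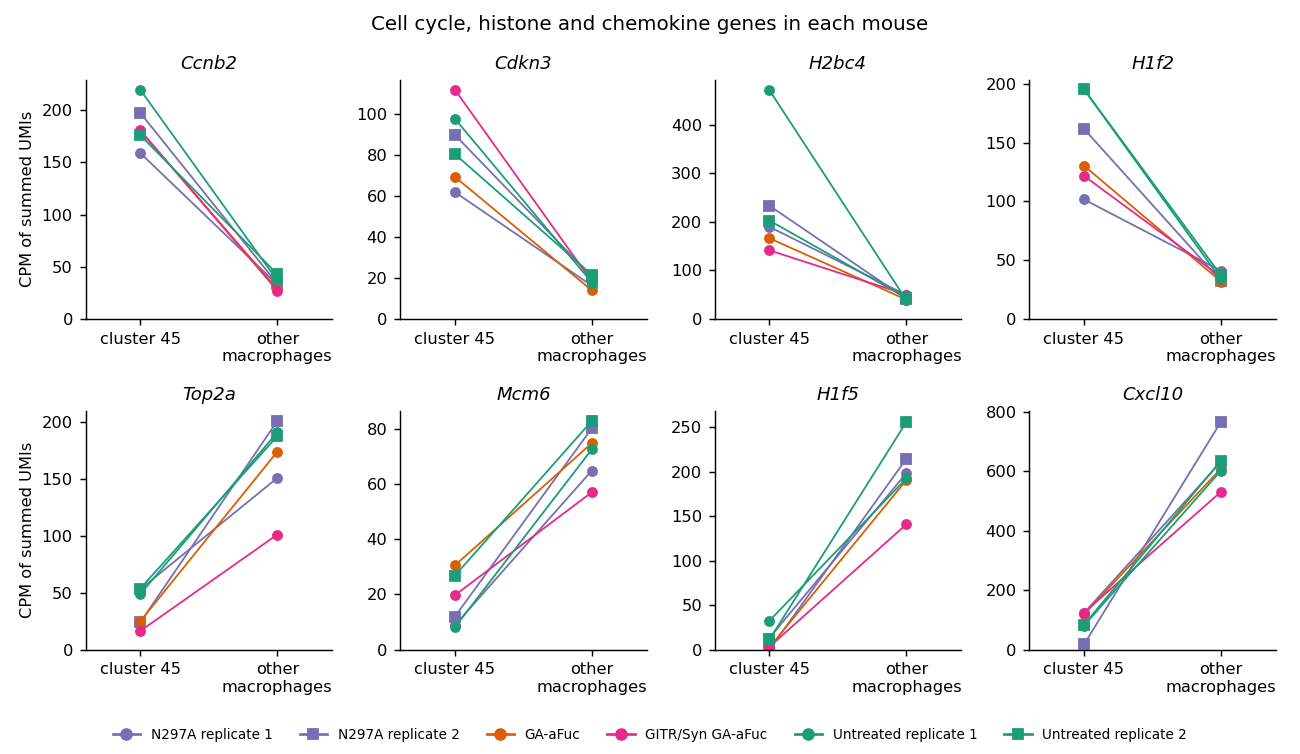
CPM of summed UMIs (y axis) in cluster 45 (left in each panel) and in the other macrophages (right), with 1 line per mouse. Ccnb2, Cdkn3, H2bc4 and H1f2 were higher in cluster 45 in 6 of 6 mice, and Top2a, Mcm6, H1f5 and Cxcl10 were lower in 6 of 6.

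The G2 and M phase genes did not move as a block. Of 54 listed genes, 24 passed the level of 50 CPM, of which 4 were called higher (Ccnb2, Cenpa, Cks1b and Birc5) and 1 lower (Top2a). Ratios were above 0 for 24 of all 54, with a median of -0.15. Top2a, the topoisomerase that untangles replicated chromosomes, had 53 and 23.9 CPM in cluster 45 of the N297A mice, 24.9 CPM in the GA-aFuc mouse, 16.4 CPM in the GITR/Syn GA-aFuc mouse and 48.8 and 53.6 CPM in the Untreated mice, against 101 to 200.5 CPM in the other macrophages. Every mouse lies lower in cluster 45, with a log2 ratio of -1.97 ± 0.48. With the mice summed, cluster 45 at 34.7 CPM lay above 16 of 23 other clusters, and the median of the other clusters was 26.6 CPM. The pooled level rests on a few of them, with 966 CPM in cluster 13, 915 CPM in cluster 56, 768 CPM in cluster 17 and 219.9 CPM in cluster 4.

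The DNA replication genes were lower than in the pooled macrophages, part of whose level came from a few clusters. Of 43 S phase genes, 0 had a ratio above 0 and the median was -0.89. Of the 11 that passed the level, 0 were called higher and 5 lower (Pola1, Mcm6, Gmnn, Slbp and Atad2). Their summed level lay between 677 and 765 CPM in cluster 45 and between 1285 and 1689 CPM in the other macrophages. With the mice summed it was 716 CPM in cluster 45, against 5295 CPM in cluster 17, 4669 CPM in cluster 4, 2945 CPM in cluster 53 (17 cells) and 2396 CPM in cluster 13, with a median of 989 CPM over the 23 other clusters. Against that median the gap is smaller, and 21 of 23 clusters lay above cluster 45. Mcm6, a subunit of the replicative helicase, ran from 8.13 to 30.5 CPM with a median of 15.8 in cluster 45, against 57 to 82.8 CPM with a median of 73.6 in the other macrophages, and 21 of 23 clusters (median 48.8 CPM) lay above cluster 45. Pola1, the catalytic subunit of DNA polymerase alpha, averaged 12 ± 5.63 CPM in cluster 45 and 71.5 ± 8.10 CPM in the other macrophages. Lig1, the ligase that joins Okazaki fragments, averaged 7.0 ± 9.13 CPM in cluster 45 and 55.9 ± 5.29 CPM in the other macrophages, with 0 UMIs in cluster 45 of 3 mice. Pcna, the sliding clamp of the replication fork, averaged 86.4 ± 17.5 CPM in cluster 45 and 166 ± 8.45 CPM in the other macrophages, short of a call at a log2 ratio of -0.89 ± 0.22.

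Histone genes stood apart in both directions. They come in families of near-identical copies, and how the counting split reads between copies is unknown, so single members are uncertain. Of 72 histone genes, 7 passed the level, of which 2 were called higher (H2bc4 and H1f2) and 3 lower (H1f5, H2ac8 and H4c4), and 25 had 0 UMIs in cluster 45. H2bc4, an H2B gene, had 189.9 and 233 CPM in cluster 45 of the N297A mice, 166 CPM in the GA-aFuc mouse, 141 CPM in the GITR/Syn GA-aFuc mouse and 472 and 203 CPM in the Untreated mice, against 38.4 to 50.04 CPM in the other macrophages. Untreated replicate 1, the mouse with the fewest cells, lies highest, and the other 5 mice also lie above every value of the other macrophages. H1f2, a linker histone, averaged 151 ± 39.4 CPM in cluster 45 and 35.2 ± 3.48 CPM in the other macrophages (log2 ratio 1.80 ± 0.42). H1f5, another linker histone, had 13.2 and 0 CPM in cluster 45 of the N297A mice, 2.77 CPM in the GA-aFuc mouse, 3.29 CPM in the GITR/Syn GA-aFuc mouse and 32.5 and 11.5 CPM in the Untreated mice, against 141 to 256 CPM in the other macrophages. Its log2 ratio was -3.50 ± 0.76, and its 12 UMIs in cluster 45 came from 10 cells. With the mice summed, cluster 45 held 8.32 CPM, and the median of the 23 other clusters was 12.7 CPM. The pooled level, and with it the size of the ratio, rests mostly on clusters 17 and 13, at 1751 and 1061 CPM.

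**Figure D2:**
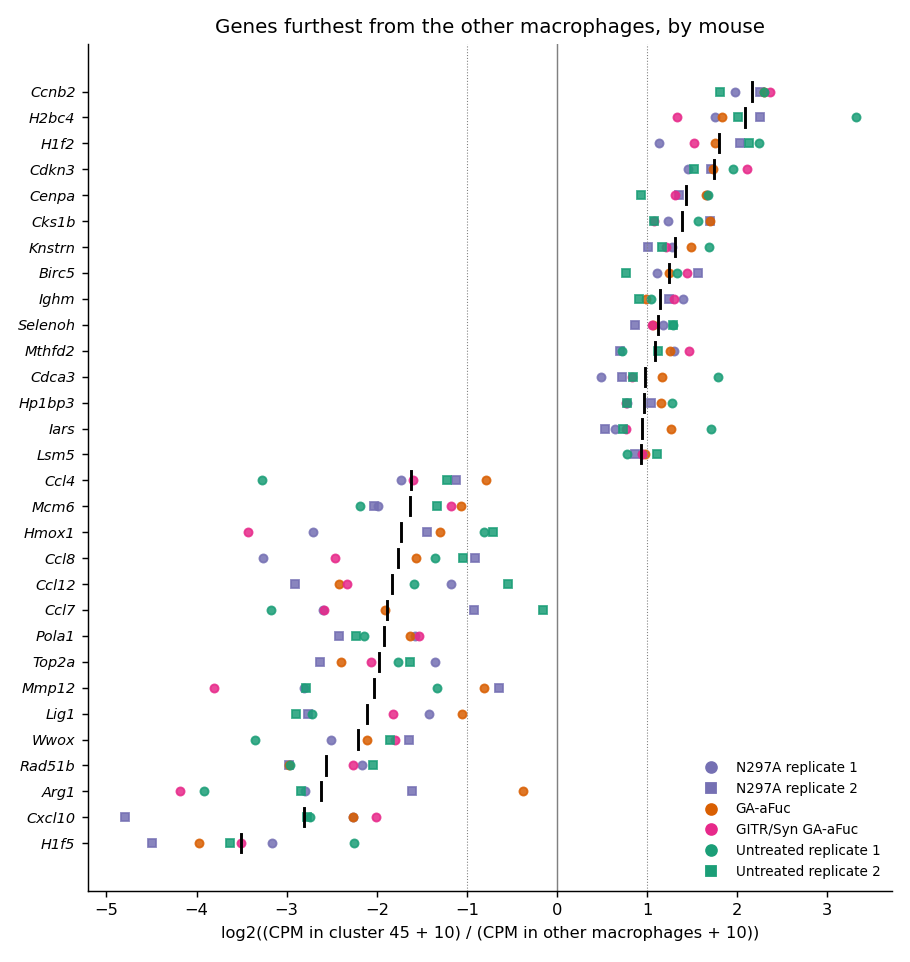
Log2 ratio of cluster 45 to the other macrophages (x axis) for the 15 genes furthest above and the 15 furthest below, with 1 point per mouse, a bar at the mean and dotted lines at the call levels of 1 and -1. Every point of the upper set lies above 0 and every point of the lower set below 0, which the choice of genes requires.

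Cluster 45 was set beside the other macrophage clusters, with the cells of all mice summed. Of 24 clusters it had rank 5 for the summed G2 and M phase genes, at 3494 CPM, and rank 22 for the S phase genes, at 716 CPM. By correlation over genes, a description, clusters 24 and 5 were about equally close (Pearson's r 0.965 and 0.963, Spearman's rho 0.928 and 0.931). Cluster 24 held 7647 and 821 CPM of these lists. Cluster 56 held 14152 and 1047 CPM. Ccnb2 stood at 182 CPM in cluster 45, 226 CPM in cluster 24 and 240 CPM in cluster 56. Top2a stood at 34.7, 93.3 and 915 CPM in the same clusters, a wider spread. H2bc4 and H1f2 had rank 1 and 1 in cluster 45, at 205 and 145 CPM. Cluster 24 held 184 CPM of H2bc4, and cluster 13 held 119 CPM of H1f2. Within mice against cluster 24, H2bc4 was higher in 2 of 6 mice and H1f2 in 4 of 6, and the values overlap. Against cluster 56 they were higher in 5 and 6 of 6 mice.

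**Figure D3:**
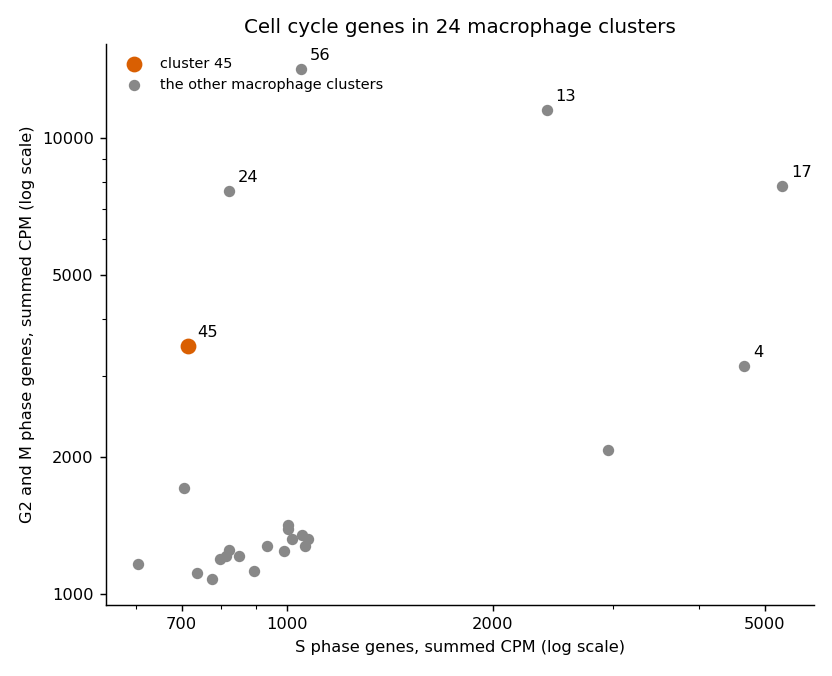
Summed CPM of 43 S phase genes and of 54 G2 and M phase genes (log axes) in each of 24 macrophage clusters, with the cells of 6 mice summed. Cluster 45, at 716 and 3494 CPM, lies below clusters 24 and 56 in both lists.

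Against cluster 24, within mice, 7 of 3774 genes were called higher (0.185%) and 71 lower (1.88%). Ccnb2 averaged 186 ± 20.7 CPM in cluster 45 and 229 ± 30.7 CPM in cluster 24, and the values of the mice overlap. Of 54 G2 and M phase genes, 1 had a ratio above 0 and the median was -1.18, beside 0.04 for all genes. Of the 32 that passed the level, 0 were called higher and 21 lower. Of 43 S phase genes, 15 had a ratio above 0 and the median was -0.14. Of the 3 that passed the level, 0 were called higher and 0 lower. Mcm6 averaged 17.7 ± 9.52 CPM in cluster 45 and 17.6 ± 6.96 CPM in cluster 24. Lig1 averaged 7.0 ± 9.13 CPM in cluster 45 and 14.9 ± 3.73 CPM in cluster 24, and the values of both genes overlap. Plk1, the polo-like kinase, averaged 14.8 ± 12.1 CPM in cluster 45 and 85.8 ± 16.6 CPM in cluster 24. Cdc20, an activator of the anaphase-promoting complex, averaged 37.6 ± 15.2 CPM in cluster 45 and 176 ± 19.1 CPM in cluster 24. Malat1, a nuclear non-coding RNA, averaged 4012 ± 1016 CPM in cluster 45 and 3957 ± 797 CPM in cluster 24, and the values overlap. The chemokine gene Cxcl10 averaged 91.9 ± 41.2 CPM in cluster 45 and 1072 ± 192 CPM in cluster 24, and Ccl4 256 ± 122 CPM in cluster 45 and 1399.8 ± 396 CPM in cluster 24. Maml3, a coactivator of Notch signalling, stood furthest above, at 208 ± 45.7 CPM in cluster 45 and 64.2 ± 17.8 CPM in cluster 24, and Prkcb, protein kinase C beta, averaged 209.9 ± 40.5 CPM in cluster 45 and 92.6 ± 18.7 CPM in cluster 24. Against cluster 56, 11 of 3854 genes were called higher (0.285%) and 126 lower (3.27%). Prc1, which bundles microtubules of the spindle midzone, averaged 11.1 ± 8.87 CPM in cluster 45 and 433 ± 119 CPM in cluster 56. Top2a averaged 36.8 ± 16.8 CPM in cluster 45 and 906 ± 174 CPM in cluster 56. Unlike against cluster 24, the chemokine values of the mice overlap here. Cxcl10 averaged 91.9 ± 41.2 CPM in cluster 45 and 244 ± 136 CPM in cluster 56. Ccl4 averaged 256 ± 122 CPM in cluster 45 and 217 ± 124 CPM in cluster 56.

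Genes of amino acid supply ran above the other macrophages by small amounts. Of 20 aminoacyl-tRNA synthetase genes, which load amino acids onto tRNAs, 19 had a ratio above 0, with a median of 0.40. Of the 12 that passed the level, 0 were called higher and 0 lower. Their summed level lay between 1444 and 1736 CPM in cluster 45 and between 966 and 1058 CPM in the other macrophages, without overlap, and had rank 1 of 24 clusters. Nars averaged 291 ± 65.6 CPM in cluster 45 and 178 ± 14.8 CPM in the other macrophages, Iars 62.9 ± 25 CPM in cluster 45 and 26.3 ± 2.61 CPM in the other macrophages and Aars 61.3 ± 15.3 CPM in cluster 45 and 29.7 ± 1.88 CPM in the other macrophages, each higher in 6 of 6 mice. Mthfd2, the mitochondrial folate enzyme of one-carbon metabolism, was called higher and ran from 89.5 to 151 CPM with a median of 119 in cluster 45, against 42.6 to 56.3 CPM with a median of 49.5 in the other macrophages. Of 25 oxidative phosphorylation genes, 22 had a ratio above 0, with a median of 0.20 and 0 calls. TMM scaling moved the median of all genes by -0.10.

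Ighm, the heavy chain of IgM, was called higher. It ran from 202 to 353 CPM with a median of 294 in cluster 45, against 97.4 to 152 CPM with a median of 125 in the other macrophages, without overlap (log2 ratio 1.15 ± 0.20), and free RNA held 104 CPM of it. Among other B cell markers, Cd79a had 0 UMIs in cluster 45, Ms4a1 had 2 UMIs and Cd79b averaged 36.2 ± 21.8 CPM in cluster 45 and 29.7 ± 5.03 CPM in the other macrophages. At 5000 UMIs, Ighm was seen in 60.9% of cluster 45 cells, 37.1% of other macrophages and 7.96% of CD8 T cells (81.9%, 56.7% and 11% unthinned). With the mice summed, Ighm stood at 276 CPM in cluster 45, and at 250, 239 and 206 CPM in clusters 56, 15 and 24. The values of the mice in cluster 45 overlap those in cluster 24 and those in cluster 56.

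Inflammatory genes were low. Of 20 cytokine and chemokine genes, 11 passed the level, of which 0 were called higher and 5 lower (Ccl3, Ccl4, Ccl7, Ccl8 and Ccl12). Their summed level lay between 1608 and 3239 CPM in cluster 45 and between 3433 and 4601 CPM in the other macrophages. With the mice summed it was 2033 CPM in cluster 45, rank 24 of 24 clusters. Clusters 5, 56 and 25 were close at 2092, 2344 and 2410 CPM, and the median of the 23 other clusters was 3874 CPM. Cxcl10, a chemokine that draws T cells through CXCR3, had 124 and 18 CPM in cluster 45 of the N297A mice, 119 CPM in the GA-aFuc mouse, 125 CPM in the GITR/Syn GA-aFuc mouse and 81.3 and 84.2 CPM in the Untreated mice, against 531 to 767 CPM in the other macrophages. All 6 mice lie below every value of the other macrophages, N297A replicate 2 furthest, and free RNA held 759 CPM. With the mice summed, cluster 45 held 99.8 CPM, below each of the 23 other clusters, whose lowest was 106 CPM and median 293 CPM. Clusters 3 and 6 held the most, at 2391 and 1852 CPM. Ccl4, another chemokine, ran from 73.2 to 413 CPM with a median of 278 in cluster 45, against 566 to 794 CPM with a median of 728 in the other macrophages. For Ccl12, 1 cell held 42.6% of the UMIs in cluster 45, and its sets overlap, as do those of Ccl7 and Ccl8.

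Hypoxia, immediate early and class II genes also ran below the other macrophages. Of 25 hypoxia and glycolysis genes, 0 had a ratio above 0 and the median was -0.61; 3 were called lower (Bnip3, Ero1a and Slc16a3). Bnip3, a mitophagy receptor, averaged 36 ± 17.2 CPM in cluster 45 and 121 ± 20.3 CPM in the other macrophages. With the mice summed, Bnip3 was lowest in cluster 45 at 38.8 CPM, against a median of 73.4 CPM over the 23 other clusters. Clusters 39, 9 and 11 held 571, 544 and 349 CPM of it. The summed list stood at 6005 CPM in cluster 45, against a median of 6867 CPM, and 20 of 23 clusters lay above cluster 45. Hmox1, the haem-degrading enzyme, averaged 44.2 ± 14.4 CPM in cluster 45 and 196 ± 140.2 CPM in the other macrophages. Over the mice, the other macrophages had a median of 136 CPM and a highest value of 453 CPM. Hmox1 averaged 49.3 ± 11.8 CPM in cluster 24 and 140 ± 181 CPM in cluster 56, and the values overlap those of cluster 45 in both. Of 21 immediate early genes, 0 had a ratio above 0, and the 1 called was Jun, which averaged 126 ± 36.8 CPM in cluster 45 and 288 ± 20.9 CPM in the other macrophages. Of 12 class II presentation genes, 0 had a ratio above 0, with a median of -0.34 and 0 calls. H2-Aa, a class II alpha chain, averaged 1466 ± 562 CPM in cluster 45 and 2799 ± 545 CPM in the other macrophages, and its sets overlap. Heat shock and unfolded protein response genes did not follow. Of 12 heat shock genes, 6 had a ratio above 0, with a median of -0.10. Of 15 unfolded protein response genes, 13 had a ratio above 0, with a median of 0.17, and neither list had a call. Hspa5, the chaperone BiP of both lists, averaged 1065 ± 124 CPM in cluster 45 and 819 ± 28.5 CPM in the other macrophages, higher in 6 of 6 mice. Malat1 averaged 4012 ± 1016 CPM in cluster 45 and 10428 ± 926 CPM in the other macrophages, a gap that was not seen against cluster 24. Arg1 (arginase) and Mmp12 (macrophage elastase) were also called lower, but 1 cell held 57.9% and 88.5% of their UMIs in cluster 45, and their sets overlap. None of the 6 human Fc receptor genes was called. FCGR2A, an activating receptor, averaged 1161 ± 199 CPM in cluster 45 and 1060.3 ± 152 CPM in the other macrophages. FCGR3A and FCGR3B are near-identical and cannot be told apart with certainty.

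The share of macrophages in cluster 45 was compared between treatments over mice. It was 2.28% and 1.72% in the N297A mice, 3.02% in the GA-aFuc mouse, 3.09% in the GITR/Syn GA-aFuc mouse and 1.43% and 2.03% in the Untreated mice. The 95% Clopper-Pearson intervals, which cover counting error only, all lie between 0.656% and 4.63% and overlap. The Fc-enhanced mice averaged 3.05% and the other 4 mice 1.87%, a difference of 1.19 percentage points. A two-sided exact permutation test gave p = 0.0667, the smallest that 2 mice against 4 allow, and 0.133 adjusted over 2 comparisons. N297A mice averaged 2.0% and Untreated mice 1.73% (two-sided exact permutation p = 0.667, where 0.333 is the smallest possible). Among annotated cells outside this library, with no map to mice, the share was 2.01% in N297A, 1.92% in GA-aFuc, 2.39% in GITR/Syn GA-aFuc and 2.13% in Untreated, with overlapping intervals. GA-aFuc, above Untreated in this library, lay below it there.

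**Figure D4:**
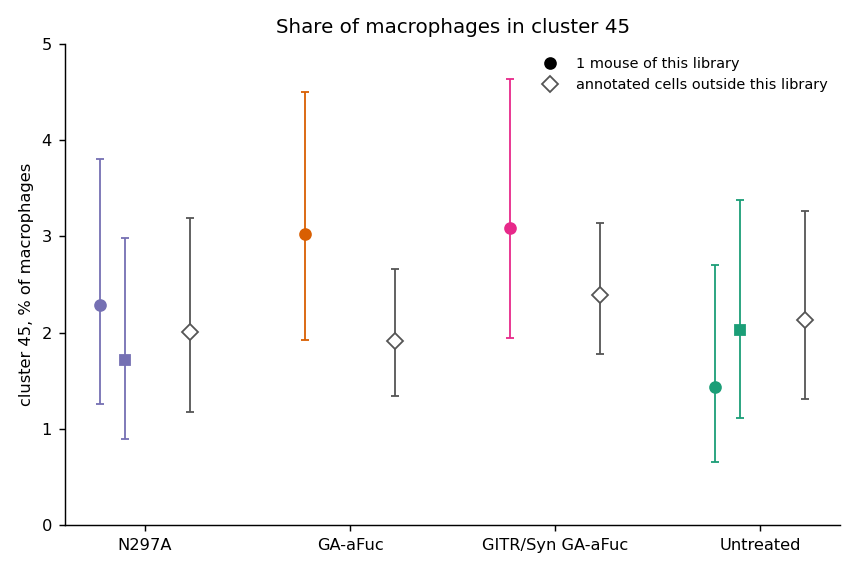
Cluster 45 as a percentage of macrophages (y axis) by treatment; filled points are single mice of this library and open diamonds the annotated cells outside it, with 95% Clopper-Pearson intervals. The GA-aFuc mouse lies at 3.02% and the GITR/Syn GA-aFuc mouse at 3.09%, and the diamonds lie between 1.92% and 2.39%.

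Expression within cluster 45 was tested between each antibody and Untreated mice with edgeR's quasi-likelihood test on UMIs summed per mouse, with Benjamini-Hochberg adjustment over 5478 genes. The fit has 2 residual degrees of freedom, both groups with 1 mouse are assumed to vary like the others, and the comparisons share the Untreated mice. N297A gave 1 gene higher (0.0183%) and 3 lower (0.0548%), GA-aFuc 2 higher and 2 lower (0.0365% each), and GITR/Syn GA-aFuc 2 higher and 2 lower (0.0365% each). DESeq2 called 0 genes in the 3 comparisons (22, 8 and 16 at an unadjusted p under 0.05), limma-voom 1, and edgeR had 301, 221 and 262 genes at an unadjusted p under 0.05. Of the 30 genes furthest from the other macrophages, Arg1 was the 1 that passed in any comparison.

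For GA-aFuc, where 1 mouse was set against 2 Untreated mice and the spread came from the groups with 2 mice, edgeR called 2 class II genes lower. H2-Aa had 798 CPM there, against 2351 and 1114 CPM in the Untreated mice (log2 change -1.16 ± 0.25 SE, edgeR adjusted p = 0.0109). H2-DMb1, which acts in peptide loading, had 161 CPM there, against 496 and 444 CPM in the Untreated mice (log2 change -1.61 ± 0.35 SE, edgeR adjusted p = 0.0074). The GA-aFuc mouse lies below both Untreated mice for each gene. Of 9 class II genes tested, 2 were called lower and 0 had a change above 0, with a median log2 change of -1.16 beside -0.01 for all genes. The Untreated mice themselves differ for H2-Aa. Without Untreated replicate 1 its log2 change was -0.59 (edgeR adjusted p = 0.609), and without Untreated replicate 2 it was -1.58 (edgeR adjusted p = 3.60e-09). With the UMIs of its highest cell set aside, the log2 change was -0.98 for H2-Aa and -1.36 for H2-DMb1, close to the values above, but neither passed (edgeR adjusted p = 0.999 and 0.116). DESeq2 called neither, and limma-voom called H2-DMb1.

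Arg1 had 324 CPM in the GA-aFuc mouse, against 0 and 7.66 CPM in the Untreated mice (log2 change 5.76 ± 0.66 SE, edgeR adjusted p = 9.65e-15). In that mouse 81 of 117 UMIs came from 1 cell, and without it the edgeR adjusted p was 0.0036. Gm42031, a gene model with no assigned name, had 152 CPM in the GA-aFuc mouse, against 0 and 15.3 CPM in the Untreated mice (log2 change 3.75 ± 0.68 SE, edgeR adjusted p = 9.29e-05). It also stood apart in the other macrophages, at 107 CPM in the GA-aFuc mouse, against 13.3 and 13.4 CPM in the Untreated mice.

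Slamf7, a receptor of the SLAM family, had 208 and 239 CPM in the N297A mice, against 89.5 and 57.4 CPM in the Untreated mice (log2 change 1.61 ± 0.39 SE, edgeR adjusted p = 0.0446). Both N297A mice lie above both Untreated mice, which adds no support of its own for a gene picked by this test. Its highest cell held 13 of 179 UMIs, and without it the log2 change was 1.36 ± 0.40 SE, edgeR adjusted p = 0.277. Spp1, osteopontin, had 13.2 and 18 CPM in the N297A mice (log2 change -3.63 ± 0.55 SE, edgeR adjusted p = 5.51e-07) and 36.2 CPM in the GITR/Syn GA-aFuc mouse (log2 change -2.42 ± 0.55 SE, edgeR adjusted p = 0.0224), against 48.8 and 283 CPM in the Untreated mice. Untreated replicate 2 is far above the rest, with 45 of its 74 UMIs in 1 cell, and without that cell the log2 change was -2.53 for N297A and -1.32 for GITR/Syn GA-aFuc (edgeR adjusted p = 0.173 and 0.932). Hdac9, a histone deacetylase, had 0 and 5.98 CPM in the N297A mice, against 8.13 and 103 CPM in the Untreated mice (log2 change -4.51 ± 0.97 SE, edgeR adjusted p = 0.00676). Without its highest cell the log2 change was -3.54 ± 1.32 SE, edgeR adjusted p = 0.674. Fgf13, called lower in N297A as well, had 38 of 38 UMIs of Untreated replicate 2 in 1 cell, and without that cell it was too low to test.

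In the GITR/Syn GA-aFuc mouse Jmy, a cofactor of p53 that also nucleates actin, had 102 CPM, against 0 and 7.66 CPM in the Untreated mice (log2 change 4.11 ± 0.83 SE, edgeR adjusted p = 0.00357). Psd3, an exchange factor for ARF6, had 62.5 CPM there, against 212 and 371 CPM in the Untreated mice (log2 change -2.33 ± 0.46 SE, edgeR adjusted p = 0.00357). The N297A mice had 243 and 53.9 CPM of Psd3 in cluster 45, the second of them below the GITR/Syn GA-aFuc mouse, and the GA-aFuc mouse had 258 CPM. In cluster 45 Jmy had 0 and 2 UMIs in the Untreated mice, beside 57.4 and 29.9 CPM in the N297A mice and 36 CPM in the GA-aFuc mouse. In the other macrophages Jmy had 54.4 CPM in the GITR/Syn GA-aFuc mouse, against 74.5 and 45.7 CPM in the Untreated mice. Jmy and Psd3 both passed without their highest cell as well in the comparison of the GITR/Syn GA-aFuc mouse. Map4k4, a kinase upstream of JNK, had 178 CPM, against 40.7 and 38.3 CPM in the Untreated mice (log2 change 2.10 ± 0.50 SE, edgeR adjusted p = 0.0433). Its highest cell held 10 of 129 UMIs, and without it the log2 change was 1.80 ± 0.52 SE, edgeR adjusted p = 0.357.

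**Figure D5:**
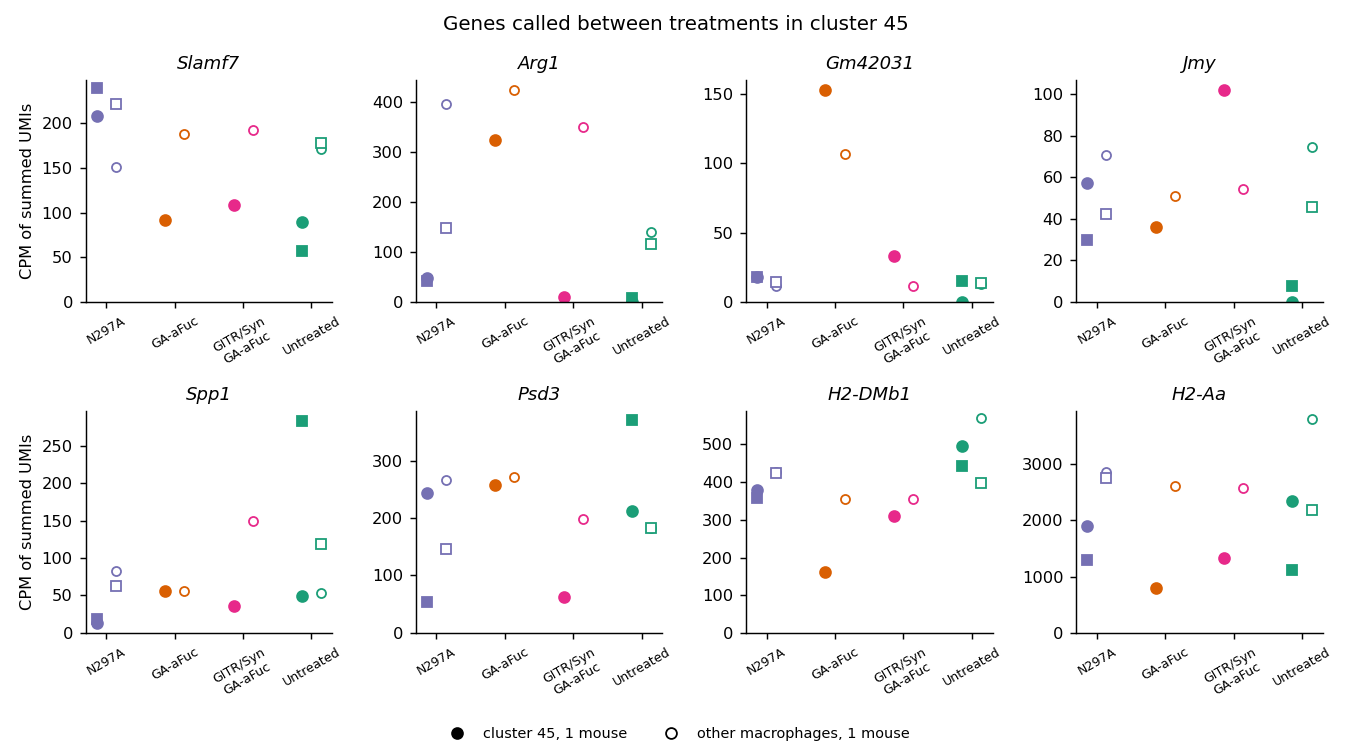
CPM of summed UMIs (y axis) by treatment for 8 genes called between an antibody and Untreated mice; filled points are cluster 45 and open points the other macrophages of the same mouse. Slamf7 in cluster 45 of the N297A mice, at 208 and 239 CPM, lies above both Untreated mice, and H2-Aa in cluster 45 of the GA-aFuc mouse, at 798 CPM, lies below both.

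Whether a treatment change in cluster 45 differed from that in the other macrophages of the same mice was tested in 1 edgeR fit over 13849 genes. Of these, 1 gene was higher (0.00722%) and 5 lower (0.0361%) for N297A, 1 higher (0.00722%) and 5 lower (0.0361%) for GA-aFuc, and 1 higher (0.00722%) and 11 lower (0.0794%) for GITR/Syn GA-aFuc. Slamf7 had 151 and 221 CPM in the other macrophages of the N297A mice, against 171 and 178 CPM in those of the Untreated mice, a smaller gap than in cluster 45 (log2 difference 1.61 ± 0.37 SE, edgeR adjusted p = 0.0302). H2-Aa had 2615 CPM in the other macrophages of the GA-aFuc mouse, against 3805 and 2179 CPM in those of the Untreated mice (log2 difference -0.87 ± 0.17 SE, edgeR adjusted p = 0.00186). Without the highest cell the log2 difference was 1.37 for Slamf7 and -0.57 for H2-Aa, and neither passed (edgeR adjusted p = 0.227 and 1). Hmox1 had 32.9 CPM in cluster 45 of the GITR/Syn GA-aFuc mouse, against 56.9 and 53.6 CPM in that of the Untreated mice, while its other macrophages had 453 CPM, against 108 and 94.4 CPM in those of the Untreated mice (log2 difference -2.94 ± 0.59 SE, edgeR adjusted p = 0.00105).

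Some of the lists without calls are given by their counts. In N297A, 3 of 20 hypoxia and glycolysis genes had a change above 0 (median log2 change -0.54). Of 13 inflammatory cytokine and chemokine genes, 5 did (-0.45), beside a median of -0.003 for all genes. Of 26 type I interferon genes tested, 23 had a change above 0 in N297A (median log2 change 0.52), 18 in GA-aFuc (0.08) and 24 in GITR/Syn GA-aFuc (0.46). Of 28 G2 and M phase genes, 15, 12 and 10 had a change above 0 in the same order, with medians of 0.02, -0.03 and -0.39. The log2 changes of H2bc4 were -0.66 ± 0.32, -1.02 ± 0.38 and -1.24 ± 0.39 SE (edgeR adjusted p = 0.891, 0.841 and 0.429), none past the threshold. On simulated data the test found 7.5%, 3.5% and 1% of 2-fold changes and 67.5%, 54% and 52.5% of 4-fold changes in the same order, so 2-fold differences were mostly not detectable at this depth.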

How the data were processed

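RNA and hashtag counts were measured in 1 10x Genomics 3' library of 6 hashtags, taken as 6 mice. The authors deposited raw UMI counts per gene and barcode and a cell table with treatment, cell type and cluster. Cell Ranger 9.0.0 and the builds GRCh38 and GRCm39 are named in the file headers and the submitters' processing notes. The sources used here do not say how cells were filtered, how doublets were treated or how clusters were made. No doublet caller was run, and leaving out the top 5% of macrophages by UMIs was tried in its place.

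Cells were matched by barcode and given to the mouse of their strongest hashtag, whose treatment is that of most of its annotated cells; replicate numbers follow hashtag order. Nothing links these samples to separate cultures or days, so p-values measure only the spread between them. UMIs were summed per mouse over cluster 45 and over the other macrophages, and scaled to CPM with a pseudocount of 10. Free RNA is the sum over 163454 barcodes of few UMIs outside the annotation. Treatments were tested with edgeR 4.0.16 in R 4.3.3 (TMM, filterByExpr, robust quasi-likelihood, threshold 0.05), and a fit with mouse as a block tested the difference between cluster 45 and the other macrophages. DESeq2 1.42.0 and limma 3.58.1 were alternatives. The edgeR test within cluster 45 was also run on data simulated from the means, depth and spread of these counts. Intervals and floors cover counting error only.

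The members, the 40 gene lists and the rule for named genes (the 15 furthest in each direction, up to 4 per list, up to 10 called per direction and treatment) were chosen with earlier results of these data known. The lists of S phase, G2 and M phase, tRNA synthetase, amino acid and one-carbon, and histone genes, the comparisons with clusters 24 and 56 and with single clusters, and the fits without a gene's highest cell were added after seeing the data. Members named beyond the rule (Pcna, Nars, Cd79b, Plk1, Cdc20, Maml3, Prkcb, Prc1) were chosen after their values were seen.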

Additional observations from a re-analysis of the deposited data

Results flagged for a closer look

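Cxcl10 in N297A replicate 2, at 18 CPM in cluster 45 (the value of 3 UMIs in that mouse), stood apart from the other 5 mice. Its log2 ratio of cluster 45 to the other macrophages was -4.80, against -2.78 to -2.005 in the others. It was the 1 case among 34 quantities checked, and chance gives about 1 in 20.

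In 24 cases the treatment change in cluster 45 differed from that in the other macrophages, in edgeR's quasi-likelihood test of the interaction with mouse as a block and Benjamini-Hochberg adjustment. The values are log2 differences, the change in cluster 45 minus that in the other macrophages. For N297A against Untreated mice, the difference was 1.61 for Slamf7, -1.90 for Mrc1, -3.64 for Fcrls, -1.22 for Pf4, -3.28 for Spp1 and -0.74 for Lyz2. For GA-aFuc against Untreated mice, the difference was -1.60 for Clec7a, 4.20 for Arg1, -0.83 for H2-Ab1, -0.87 for H2-Aa, -0.80 for H2-Eb1 and -0.65 for Cd74. For GITR/Syn GA-aFuc against Untreated mice, the difference was -1.82 for Mrc1, -4.42 for Fabp5, -1.09 for Prdx1, -1.90 for Pf4, -3.03 for Spp1, -2.40 for Psd3, -2.94 for Hmox1, -1.18 for Mt1, -0.80 for Lyz2, -1.62 for Aopep, 4.30 for Jmy and -0.50 for Fth1. DESeq2 and limma-voom called 0 of them, with 118, 64 and 117 genes in DESeq2 and 680, 695 and 706 in limma-voom at an unadjusted p under 0.05. With the highest cell of each gene set aside, all kept their sign and 12 still passed. The log2 differences of those that did not pass were for N297A 1.37 for Slamf7, -3.09 for Fcrls and -2.20 for Spp1; for GA-aFuc -1.59 for Clec7a, 2.51 for Arg1, -0.60 for H2-Ab1, -0.57 for H2-Aa, -0.56 for H2-Eb1 and -0.34 for Cd74; for GITR/Syn GA-aFuc -1.80 for Mrc1, -1.94 for Spp1 and -1.60 for Aopep. That of Clec7a is nearly the same (edgeR adjusted p = 0.0559), and its highest cell is in N297A replicate 1, outside that contrast.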

How the results depend on the processing

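The counts of genes against the other macrophages moved with the pseudocount: 1 CPM gave 18 higher and 60 lower genes, and 50 CPM gave 5 higher and 13 lower. With no filter on low values, which moved the lower count furthest, 104 genes were lower. Leaving out 1 mouse gave 11 to 14 higher and 47 to 56 lower genes. Each alternative tried kept the sign of every called gene named against the other macrophages. The difference in share between Fc-enhanced and other mice was 1.04 to 1.33 percentage points with 1 mouse left out. That between N297A and Untreated mice was -0.0275 to 0.571 points, and it was -0.0107 without N297A replicate 1 and -0.0275 without Untreated replicate 1, the opposite sign.

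Treatment calls are given for N297A first, GA-aFuc next and GITR/Syn GA-aFuc last, each against Untreated mice. DESeq2 gave 0 in all 12 counts, and limma-voom gave 0 in all but 1, the 1 gene lower for GA-aFuc within cluster 45. Mice with at least 10 cells of cluster 45, which leaves out Untreated replicate 1, gave 6, 6 and 10 within cluster 45 and 3, 1 and 4 between cluster 45 and the other macrophages for higher genes, and 13, 9 and 11 within cluster 45 and 9, 3 and 14 between cluster 45 and the other macrophages for lower genes. Leaving out the top 5% of macrophages by UMIs gave 0, 2 and 1 within cluster 45 and 0, 1 and 1 between cluster 45 and the other macrophages for higher genes, and 0, 1 and 1 within cluster 45 and 1, 3 and 5 between cluster 45 and the other macrophages for lower genes. No filter on low counts gave 0, 3 and 1 within cluster 45 and 0, 1 and 1 between cluster 45 and the other macrophages for higher genes, and 3, 1 and 1 within cluster 45 and 4, 5 and 6 between cluster 45 and the other macrophages for lower genes. With 1 mouse left out, higher genes within cluster 45 numbered 0 to 6, 1 to 6, 0 to 10, and lower genes 0 to 13, 0 to 13, 0 to 11. Between cluster 45 and the other macrophages, higher genes numbered 0 to 4, 1 to 2, 1 to 4, and lower genes 1 to 9, 1 to 9, 5 to 14. All calls within cluster 45 together numbered 1 without N297A replicate 1, 55 without Untreated replicate 1 and 48 without Untreated replicate 2, against 12 with all mice. The cause was not tested. A mouse with a lone sample in its group is assumed to vary like the other groups. Depth of 9 to 23 cells per mouse limits every treatment value. Cluster 45 and the other macrophages were compared within the same mice throughout. Between treatments no paired analysis was possible because the replicate numbers follow hashtag order and only name the mice.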
